A study of Homo sapiens with 12 samples.

Results

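Semaphorins, plexins and neuropilins were examined in MDA-MB-231, an established human triple-negative breast cancer (TNBC) cell line that expresses the glucocorticoid receptor (GR, gene NR3C1). The members were all gene symbols in the deposited tables that name a semaphorin of classes 3 to 7, a plexin or a neuropilin, 31 of 19907 symbols, of which 20 were semaphorins, 9 plexins and 2 neuropilins. RNA-seq covered 4 groups of 3 libraries. One line kept endogenous wild-type GR (wt-GR) and is a clone that went through the same CRISPR editing without being changed. The other carried a CRISPR knock-in that put an alanine in place of a serine of GR (S134A-GR, clone #1), a site that the study describes as phosphorylated. Both lines were starved for 18 h in IMEM with 1% charcoal-stripped serum (DCC) and then received vehicle or 10 ng/mL of transforming growth factor β1 (TGFβ1) for 6 h. Each line is 1 clone, so the genotype and other differences between the clones cannot be told apart. The sources do not say that the replicates were separate cultures, and p-values therefore measure the spread between these libraries only.

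Semaphorins are secreted or membrane-bound guidance cues, first studied in growing axons and also made by tumor cells. Class 3 semaphorins are secreted and bind mostly to a receptor complex in which a neuropilin (NRP1 or NRP2) holds the ligand and an A-type plexin passes the signal on, whereas classes 4 to 7 are anchored in the membrane and bind plexins directly. Plexins act on small GTPases, and so on the cytoskeleton and on adhesion. Neuropilins also bind members of the vascular endothelial growth factor (VEGF) family.

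The deposited value is a normalized count, the reads of a gene divided by the size factor of its library. The tables allowed the reads themselves to be recovered, from 56362036 to 129832227 per library. The 6 mesenchymal markers, among them VIM, CD44 and AXL, summed to at least 785570 normalized counts in every library. Of the 7 luminal and epithelial markers in the tables, ESR1, CDH1 and TFF1 had a mean under 20 normalized counts, while AGR2, EPCAM, GATA3 and ERBB3 had means of 1174, 1024, 808 and 291 under vehicle in wt-GR cells. Of the 5 blood, endothelial and fibroblast markers, PTPRC, DCN and LUM had a mean under 20, while PECAM1 and CDH5 had means of 1358 and 187 in the same group. A change of 1 amino acid cannot be seen in gene counts, so the level of NR3C1 is no check of the edit. NR3C1 was lower in S134A-GR cells, with a log2 fold change (of the normalized count plus 1) of −0.41 ± 0.0665 (SE, n = 3 per group, limma, adjusted p = 0.00012) under vehicle and −0.31 ± 0.0665 (limma, adjusted p = 0.00134) under TGFβ1.

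Promoter windows are shown for the 3 members that TGFβ1 raised by at least 0.5 on the log2 scale in both lines, NRP2, PLXNA2 and SEMA7A. The windows hold 250 bases before and 50 after a RefSeq start of the gene in GRCh38.p14, each on the strand of its gene. SEMA7A had 2 windows, and the one nearest its GENCODE v44 start is shown. NRP2 was read from chr2:205682251-205682550 on the plus strand, PLXNA2 from chr1:208244335-208244634 on the minus strand and SEMA7A from chr15:74433909-74434208 on the minus strand. Capitals mark the GC box GGGCGG or its complement CCGCCC, a motif of SP1-type factors, and the SMAD box CAGAC or its complement GTCTG, the short element that SMAD proteins bind after TGFβ receptor activation.
NRP2: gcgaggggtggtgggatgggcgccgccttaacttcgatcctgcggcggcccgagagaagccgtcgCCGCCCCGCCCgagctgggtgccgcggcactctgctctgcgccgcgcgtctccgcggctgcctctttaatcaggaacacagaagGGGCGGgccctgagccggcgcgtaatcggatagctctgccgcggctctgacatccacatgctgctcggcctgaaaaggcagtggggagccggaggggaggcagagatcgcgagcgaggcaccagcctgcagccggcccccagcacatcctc
PLXNA2: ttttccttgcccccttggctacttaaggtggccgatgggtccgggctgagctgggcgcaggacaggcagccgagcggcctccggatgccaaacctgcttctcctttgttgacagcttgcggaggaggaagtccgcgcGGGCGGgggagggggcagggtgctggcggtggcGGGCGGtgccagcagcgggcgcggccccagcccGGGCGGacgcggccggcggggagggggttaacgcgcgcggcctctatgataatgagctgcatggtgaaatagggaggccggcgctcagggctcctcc
SEMA7A: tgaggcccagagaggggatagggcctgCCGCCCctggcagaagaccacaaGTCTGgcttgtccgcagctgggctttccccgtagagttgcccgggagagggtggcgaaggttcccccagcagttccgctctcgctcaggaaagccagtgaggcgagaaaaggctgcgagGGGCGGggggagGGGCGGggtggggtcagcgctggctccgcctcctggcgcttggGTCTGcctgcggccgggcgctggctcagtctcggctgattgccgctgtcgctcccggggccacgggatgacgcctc
Each window held 3 GC boxes, of which a pair in NRP2 shares 1 base. SEMA7A held 2 SMAD boxes, and NRP2 and PLXNA2 held 0 in these 300 bases. Among all 35116 promoter windows of the table, 45% held a GC box and 45.3% a SMAD box on either strand. A gene can have more than 1 window in that total, whereas each member was counted with 1, so the shares have unlike bases. Of the 27 members with a window, 20 held a GC box and 8 a SMAD box, among the latter PLXNB2, SEMA3C, SEMA3D, SEMA3E and SEMA3F. The AP-1 letters TGANTCA, found in 7.71% of all windows, and the glucocorticoid response half-site AGAACA, found in 14.8%, were in 0 of the 27. A match of letters is a description of the sequence and shows no binding. NRP1, SEMA3A, SEMA6A and SEMA6B were not matched to a window.

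Levels between genes were compared per kilobase (kb) of exon, with exon lengths from GENCODE v44. These lengths join the exons of all transcripts of a gene, and the annotation used for counting is not known. The order of genes therefore depends on them. Before this division SEMA7A and SEMA4B had means of 22836.1 and 22140.5 normalized counts. The highest level among the semaphorins was that of SEMA7A, a GPI-anchored semaphorin that binds PLXNC1 and integrins, with a mean over the 12 libraries of 6009 normalized counts per kb. SEMA4B followed with 3165, SEMA3C with 1679 and SEMA6B with 1625 normalized counts per kb. Among the receptors, NRP1 had a mean of 4227, PLXNB2 of 2736, PLXNA1 of 1952 and PLXND1 of 1299 normalized counts per kb. At the other end PLXNA4 lay between 9.13 and 17.8 normalized counts per kb in the 4 group means. The SEMA4D receptor PLXNB1 had group means between 83.7 and 144 per kb.

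**Figure D1:**
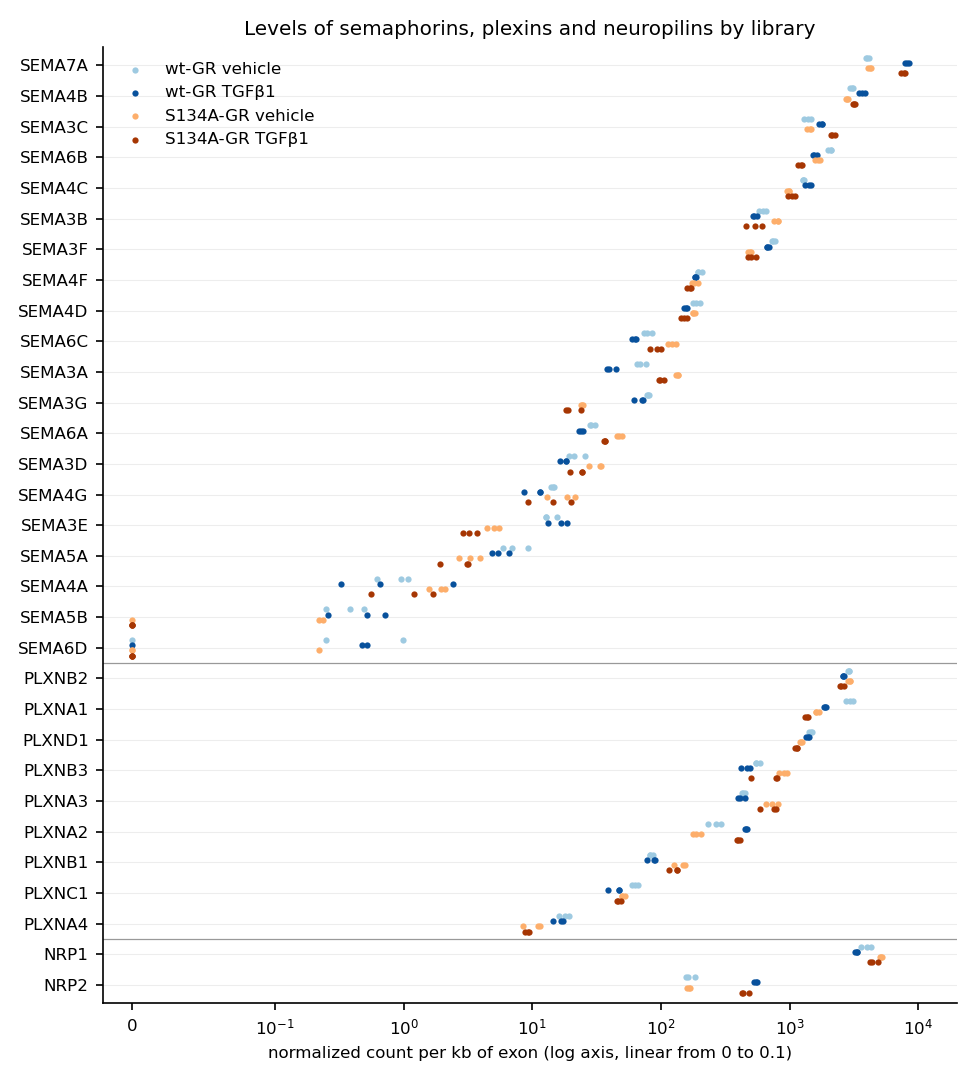
Normalized count per kb of exon (x axis, logarithmic above 0.1 and linear from 0 to 0.1) of all 31 members (y axis), with 1 point per library and 1 color per group of 3 libraries. SEMA7A, NRP1, SEMA4B and PLXNB2 lie highest, and SEMA5B reaches 0 in S134A-GR cells and SEMA6D in all 4 groups.

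A mean of at least 20 normalized counts over the 12 libraries, the limit for giving a fold change, was reached by 28 members. SEMA5A, with a mean of 58.7, was the lowest of these, and SEMA4A, with 8.53, the highest of the 3 below. SEMA4A had 3 to 16 reads in every library. SEMA5B had 2 to 6 reads in each wt-GR library, 2, 2 and 0 reads under vehicle in S134A-GR cells and 0 reads in all 3 S134A-GR libraries under TGFβ1, where 3 reads, the limit a count of 0 allows, are worth 2.15 to 3.04 normalized counts. SEMA6D had 8 reads at most in a library. Such limits cover counting error only.

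The first comparison asked how the family differs between the lines when no TGFβ1 had been added. Of the 28 members, 21 (75%) had a false discovery rate (FDR) under 0.05 in limma, of which 9 were higher and 12 lower in the S134A-GR line. The background was high, since 51.5% of all 18579 genes tested and 61.8% of the 14425 genes with a mean of at least 20 also passed. Higher calls were made for 30% and lower calls for 31.8% of those 14425 genes. Differences of 1 or more on the log2 scale were called for 3 members, SEMA3E, SEMA3G and SEMA5A, beside 7.8% of those genes. In bulk RNA, fewer cells with a transcript and less of it per cell cannot be told apart. The median log2 fold change was −0.048 over the members and 0.019 over all genes tested. Under TGFβ1 again 21 members passed, 8 higher and 13 lower, beside 48.8% of all genes tested and 58.7% of those with a mean of at least 20, for which higher calls made up 28% and lower calls 30.7%. With SEMA3A, 4 members then differed by 1 or more, beside 6.82% of genes. The medians were then −0.073 and 0.012. The libraries of the lines did not overlap for 21 of 28 members under vehicle, beside 67.2% of genes with a mean of at least 20. Under TGFβ1 this held for 22 members, beside 65% of those genes. Marker genes also differed between the lines. Of the 6 mesenchymal markers, 0 were higher, 3 lower and 3 did not pass in S134A-GR cells under either treatment. CAV1, 1 of these 6, had a mean of 43004 normalized counts in S134A-GR and 69976 in wt-GR cells under vehicle. The sum of the luminal and epithelial markers ran from 1959 to 2151 normalized counts in S134A-GR cells and from 3234 to 3409 in wt-GR cells under vehicle. Of the 4 of these markers with a mean of at least 20, 2 were higher and 2 lower. AGR2 was at 15.1, 0 and 7.13 against 1134, 1203 and 1185, and EPCAM had a mean of 378 against 1024. GATA3 and ERBB3 went the other way, with means of 1093 against 808 and of 544 against 291. The endothelial marker CDH5 was at 13.2, 16.2 and 27.6 normalized counts against 173, 165 and 222. Their part in the values of the semaphorin system was not tested.

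**Figure D2:**
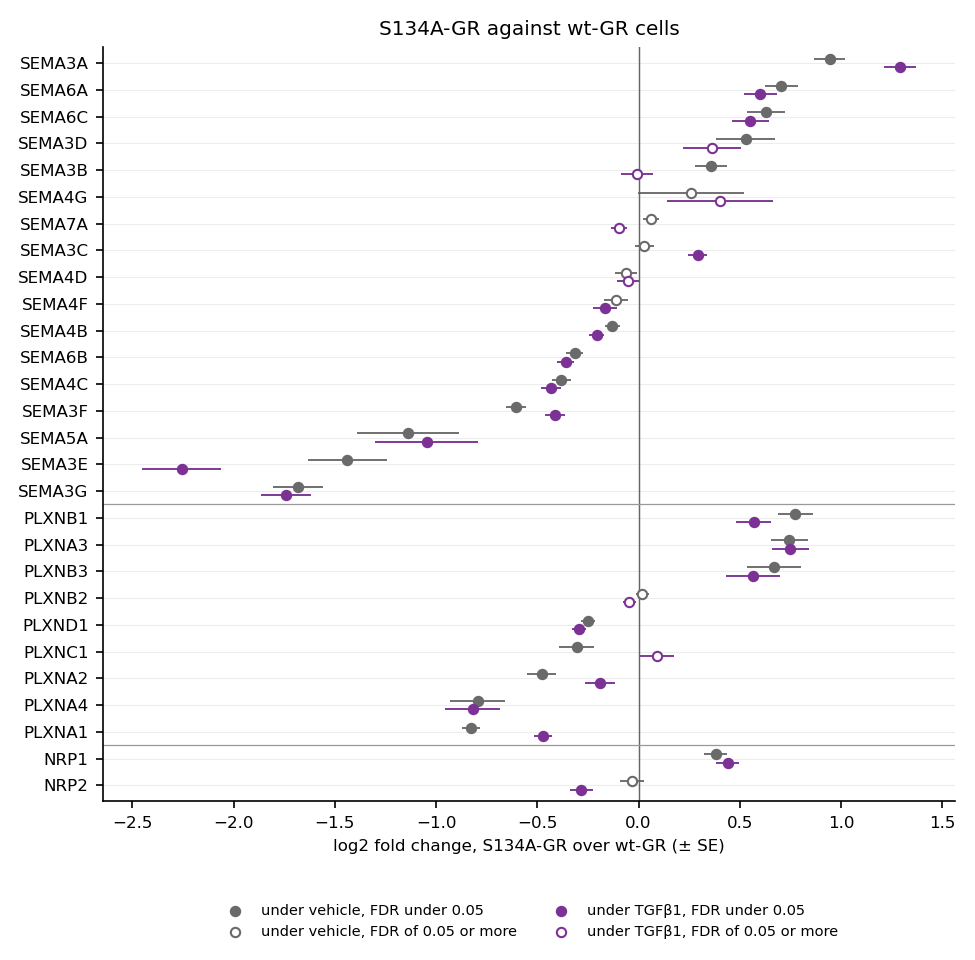
Log2 fold change ± SE of S134A-GR over wt-GR cells (x axis) for the 28 members with a mean of at least 20 (y axis), under vehicle and under TGFβ1, with filled points for an FDR under 0.05. SEMA3E, SEMA3G and SEMA5A lie beyond −1 and SEMA3A is highest, with 0.94 under vehicle and 1.29 under TGFβ1.

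The secreted class 3 ligands went both ways between the lines. Under vehicle, 3 of 7 were higher in S134A-GR cells, 3 were lower and 1 did not pass. Of genes with a mean of at least 20, 30% were higher and 31.8% lower. SEMA3A, the classical repellent of axons and a ligand of NRP1, had 632, 707 and 606 normalized counts under vehicle in wt-GR cells and 1213, 1258 and 1266 in S134A-GR cells. Under TGFβ1 it had 354, 412 and 366 in wt-GR and 976, 889 and 908 in S134A-GR cells. Every S134A-GR library was above every wt-GR library of the same treatment, and the log2 fold change was 0.94 ± 0.0786 (limma, adjusted p = 2.27e-07) under vehicle and 1.29 ± 0.0786 (limma, adjusted p = 1.17e-08) under TGFβ1.
SEMA3G, described mainly in endothelial cells, had 399, 393 and 404 normalized counts in wt-GR and 122, 126 and 124 in S134A-GR cells under vehicle. Under TGFβ1 the values were 311, 357 and 369 against 93.2, 121 and 95.1. The groups did not overlap, and the log2 fold change was −1.68 ± 0.123 (limma, adjusted p = 6.62e-08) and −1.74 ± 0.123 (limma, adjusted p = 5.14e-08), a level 3.21-fold and 3.34-fold lower in S134A-GR cells.
SEMA3E, which binds PLXND1 without a neuropilin, had 108, 109 and 132 normalized counts in wt-GR and 42.4, 46.6 and 37.4 in S134A-GR cells under vehicle. Under TGFβ1 it had 111, 141 and 159 in wt-GR and 31.4, 27.3 and 24.3 in S134A-GR cells. Again no S134A-GR library reached the lowest wt-GR library, with a log2 fold change of −1.44 ± 0.196 (limma, adjusted p = 2.61e-05) under vehicle and −2.26 ± 0.196 (limma, adjusted p = 3.63e-07) under TGFβ1.
The other class 3 members differed by less. SEMA3B, encoded in a region of chromosome 3 often lost in carcinomas, had 3363, 3604 and 3755 normalized counts in wt-GR and 4693, 4370 and 4680 in S134A-GR cells under vehicle, a log2 fold change of 0.36 ± 0.0794 (limma, adjusted p = 0.0016). Under TGFβ1 the libraries of the lines overlapped and the value was −0.01 ± 0.0794 (limma, adjusted p = 0.957). SEMA3F, a ligand of NRP2, was lower in S134A-GR cells by −0.61 and −0.41. SEMA3D was higher by 0.53 (limma, adjusted p = 0.00683) under vehicle, and its value of 0.36 under TGFβ1 did not pass (limma, adjusted p = 0.0511), although it did in 8 of 21 alternatives, among them edgeR (0.0484), DESeq2 (0.0372) and the replicate block (0.0468). SEMA3C is described with TGFβ1 below, since the lines did not pass under vehicle (0.03, limma, adjusted p = 0.658).

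Of the 10 membrane-anchored semaphorins with a mean of at least 20, 2 were higher and 4 lower in the S134A-GR line under vehicle. There were 2 higher and 5 lower under TGFβ1. The shares of genes with a mean of at least 20 were 30% and 31.8% under vehicle and 28% and 30.7% under TGFβ1. SEMA6A and SEMA6C, transmembrane ligands of class 6, were the higher ones in both comparisons, SEMA6A by 0.70 and 0.60 and SEMA6C by 0.63 and 0.55 on the log2 scale. SEMA6B of the same class was lower by −0.31 and −0.36. SEMA5A had 86.4, 114 and 72.7 normalized counts in wt-GR and 48.1, 33.5 and 40.1 in S134A-GR cells under vehicle. Under TGFβ1 it had 81.1, 60.0 and 67.2 in wt-GR and 39.0, 38.5 and 23.6 in S134A-GR cells. It was the lowest of the members with a mean of at least 20. The groups did not overlap, with a log2 fold change of −1.14 ± 0.254 (limma, adjusted p = 0.00169) and −1.05 ± 0.254 (limma, adjusted p = 0.00337). Of the exon bases of SEMA5A, 3.54% lie opposite a long noncoding RNA gene, and the strand setting of the counting is not known. SEMA4C, a ligand of PLXNB2, was lower by −0.38 and −0.43 and SEMA4B by −0.13 and −0.21. SEMA4F passed only under TGFβ1 among these 2 comparisons (−0.16, limma, adjusted p = 0.0343), a call that 17 of 21 alternative settings kept, with adjusted p up to 0.131. SEMA4D, SEMA4G and SEMA7A passed in neither. SEMA7A had 15175, 14883 and 15675 normalized counts in wt-GR and 15991, 15333 and 16458 in S134A-GR cells under vehicle, which overlapped. Its log2 fold change was 0.06 ± 0.0396 (limma, adjusted p = 0.204) under vehicle and −0.10 ± 0.0396 (limma, adjusted p = 0.0608) under TGFβ1. That second value passed in 6 of 21 alternatives, with adjusted p of 0.0408 under TMM scaling, 0.0337 in edgeR, 0.0393 in DESeq2, 0.0365 with a replicate block, 0.0496 without wt-GR vehicle replicate 3 and 0.0301 without wt-GR TGFβ1 replicate 2.

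Of the 9 plexins, 3 were higher and 5 lower in the S134A-GR line under vehicle, and 3 were higher and 4 lower under TGFβ1. Among genes with a mean of at least 20 the shares were 30% and 31.8%, and 28% and 30.7%. PLXNA1, a signaling partner of the neuropilins, had 34745, 33042 and 30586 normalized counts in wt-GR and 18126, 18119 and 19189 in S134A-GR cells under vehicle. Every S134A-GR library was below every wt-GR library, and the log2 fold change was −0.83 ± 0.0444 (limma, adjusted p = 3.25e-09). Under TGFβ1 the difference was −0.47 ± 0.0444 (limma, adjusted p = 8.27e-07).
PLXNA2, the plexin also known as a receptor of SEMA6A, had 4090, 3734 and 3198 normalized counts in wt-GR and 2583, 2463 and 2835 in S134A-GR cells under vehicle, without overlap. The log2 fold change was −0.48 ± 0.0728 (limma, adjusted p = 7.17e-05). Under TGFβ1 it was −0.19 ± 0.0728 (limma, adjusted p = 0.0421), and this call was lost with a replicate block (adjusted p = 0.0521) and without any 1 of wt-GR vehicle replicate 2 (0.0537), wt-GR TGFβ1 replicates 1 (0.0767), 2 (0.0885) and 3 (0.103), S134A-GR vehicle replicate 1 (0.0535) and S134A-GR TGFβ1 replicates 2 (0.0913) and 3 (0.118).
PLXNA4, the other A-type plexin that was lower, differed by −0.79 under vehicle and −0.82 under TGFβ1. PLXNA3 was higher by 0.75 in both, PLXNB1 by 0.77 and 0.57, and PLXNB3 by 0.67 and 0.57. Of the exon bases of PLXNB3, 20.4% are shared with SRPK3 on the same strand, so reads of these genes may not be separable. PLXND1 was lower by −0.25 and −0.29. PLXNC1, the receptor of SEMA7A, had 662, 631 and 597 normalized counts in wt-GR and 499, 529 and 499 in S134A-GR cells under vehicle, where the groups did not overlap and the log2 fold change was −0.31 ± 0.0878 (limma, adjusted p = 0.00927). Of its exon bases, 1.76% lie opposite CEP83, and 3.92%, 2.21% and 1.98% opposite long noncoding RNA genes. The strand setting of the counting is not known. PLXNB2, the plexin of highest level, was at 21066, 21138 and 20552 against 21289, 20786 and 21519, which overlapped, and passed under neither treatment (0.02, limma, adjusted p = 0.661 under vehicle and −0.05, limma, adjusted p = 0.28 under TGFβ1).

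The neuropilins differed from each other in this respect. NRP1 had 49343, 46335 and 41483 normalized counts in wt-GR and 58167, 59550 and 60514 in S134A-GR cells under vehicle. Under TGFβ1 the values were 38162, 38550 and 37378 against 55622, 50455 and 48931. All S134A-GR libraries were above the wt-GR libraries of the same treatment, with a log2 fold change of 0.38 ± 0.057 (limma, adjusted p = 6.17e-05) and 0.44 ± 0.057 (limma, adjusted p = 1.81e-05). NRP2 had 2573, 2263 and 2194 normalized counts in wt-GR and 2336, 2233 and 2282 in S134A-GR cells under vehicle, which overlapped (−0.03 ± 0.0589, limma, adjusted p = 0.663). Under TGFβ1 NRP2 was lower in S134A-GR cells by −0.28 ± 0.0589 (limma, adjusted p = 0.00114). Of the exon bases of NRP1, 4.87% lie opposite a long noncoding RNA gene, and the sources used here do not give the strand setting of the counting.

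The second question was what 6 h of TGFβ1 did to the family in each line. The comparisons of TGFβ1 with vehicle use the same vehicle libraries as the comparison of the lines. In wt-GR cells 14 of 28 members (50%) had an FDR under 0.05 in limma, 5 higher and 9 lower, beside 21% of all genes tested and 26.1% of genes with a mean of at least 20. In S134A-GR cells 17 of 28 (60.7%) passed, 5 higher and 12 lower, beside 18.7% and 23.5%. Among genes with a mean of at least 20, higher calls were made for 14% and lower calls for 12.1% in wt-GR, and for 12.7% and 10.8% in S134A-GR cells. The median log2 fold change over the members was −0.177 in wt-GR and −0.203 in S134A-GR cells, and over all genes tested −0.005 and −0.010. The TGFβ1 and vehicle libraries did not overlap for 23 members in wt-GR cells, beside 40% of genes with a mean of at least 20. In S134A-GR cells this held for 21 members, beside 42.3% of those genes. Changes of at least 0.5 were called for 6 members in each line, beside 6.27% of genes with a mean of at least 20 in wt-GR and 5.53% in S134A-GR cells. NRP2, PLXNA2, SEMA3C, SEMA4B and SEMA7A were the 5 that rose, in both lines.

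**Figure D3:**
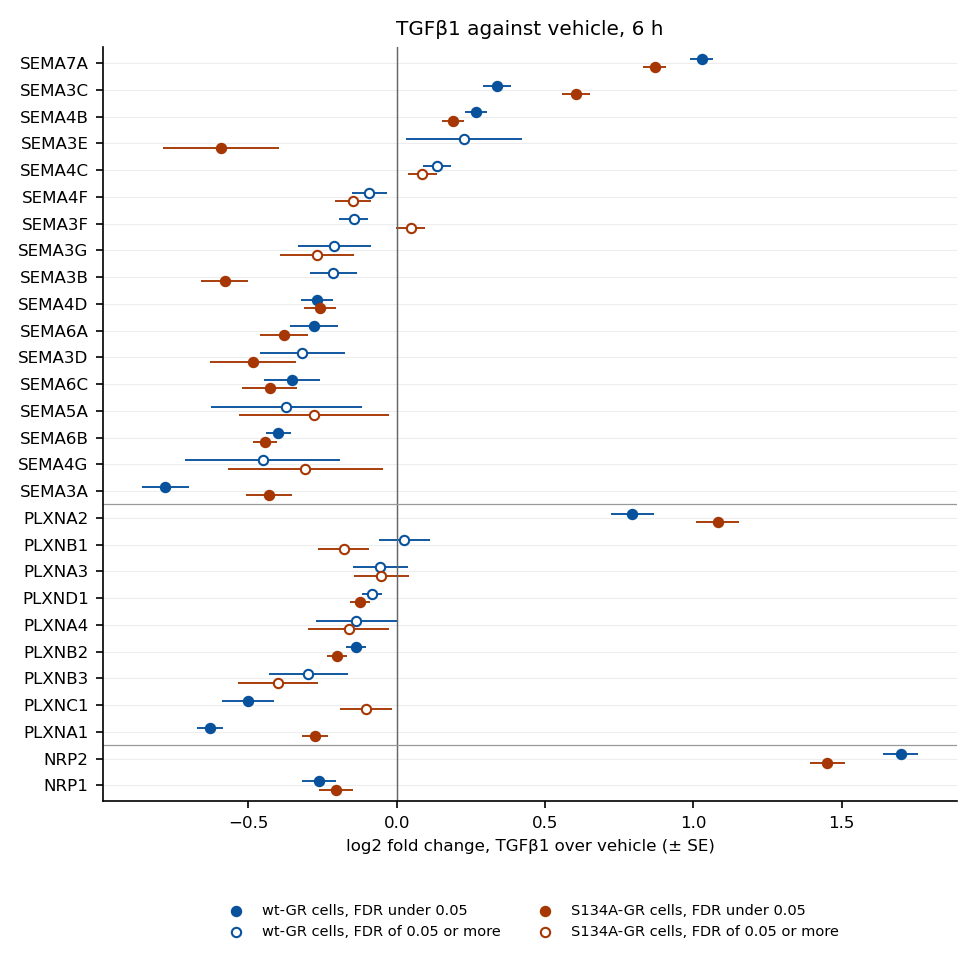
Log2 fold change ± SE of TGFβ1 over vehicle (x axis) for the 28 members with a mean of at least 20 (y axis), for each of the lines, with filled points for an FDR under 0.05. NRP2 lies farthest to the right, with 1.70 in wt-GR and 1.45 in S134A-GR cells, and SEMA7A and PLXNA2 come next, in that order in wt-GR and in the opposite order in S134A-GR cells.

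NRP2, the neuropilin that binds SEMA3F and VEGFC, rose most. From the vehicle values given above it went to 7733, 7622 and 7413 normalized counts in wt-GR cells and to 6721, 5966 and 6060 in S134A-GR cells, far above every vehicle library. The log2 fold change was 1.70 ± 0.0589 (limma, adjusted p = 9.24e-11) in wt-GR cells, 3.25-fold, and 1.45 ± 0.0589 (limma, adjusted p = 6.59e-10) in S134A-GR cells, 2.73-fold. NRP1 moved the other way, by −0.26 ± 0.057 (limma, adjusted p = 0.00438) and −0.20 ± 0.057 (limma, adjusted p = 0.0224). Its fall in S134A-GR cells no longer passed when only the groups compared were fitted (adjusted p = 0.0507) or without S134A-GR vehicle replicates 2 (0.0638) or 3 (0.0793) or S134A-GR TGFβ1 replicates 2 (0.0743) or 3 (0.0913).
SEMA7A went from the vehicle values above to 31276, 29847 and 32123 normalized counts in wt-GR cells and to 27970, 29447 and 29855 in S134A-GR cells. All 6 TGFβ1 libraries lay above all vehicle libraries. The log2 fold change was 1.03 ± 0.0396 (limma, adjusted p = 2.73e-10) in wt-GR and 0.87 ± 0.0396 (limma, adjusted p = 1.96e-09) in S134A-GR cells. PLXNC1, which binds SEMA7A, had 390, 478 and 472 normalized counts under TGFβ1 in wt-GR cells and fell by −0.50 ± 0.0878 (limma, adjusted p = 0.000908). In S134A-GR cells it had 461, 467 and 492, with a value of −0.10 ± 0.0878 (limma, adjusted p = 0.48).
PLXNA2 had 6272, 6334 and 6412 normalized counts under TGFβ1 in wt-GR cells and 5722, 5527 and 5409 in S134A-GR cells. The TGFβ1 libraries were above the vehicle libraries of both lines, with a log2 fold change of 0.79 ± 0.0728 (limma, adjusted p = 2.1e-06) and 1.08 ± 0.0728 (limma, adjusted p = 1.15e-07). PLXNA1 moved the other way. It had 20878, 20999 and 21676 normalized counts under TGFβ1 in wt-GR cells and 15690, 14793 and 15341 in S134A-GR cells, all below the vehicle libraries of the same line. Its log2 fold change was −0.63 ± 0.0444 (limma, adjusted p = 1.44e-07) in wt-GR and −0.27 ± 0.0444 (limma, adjusted p = 0.000516) in S134A-GR cells.

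**Figure D4:**
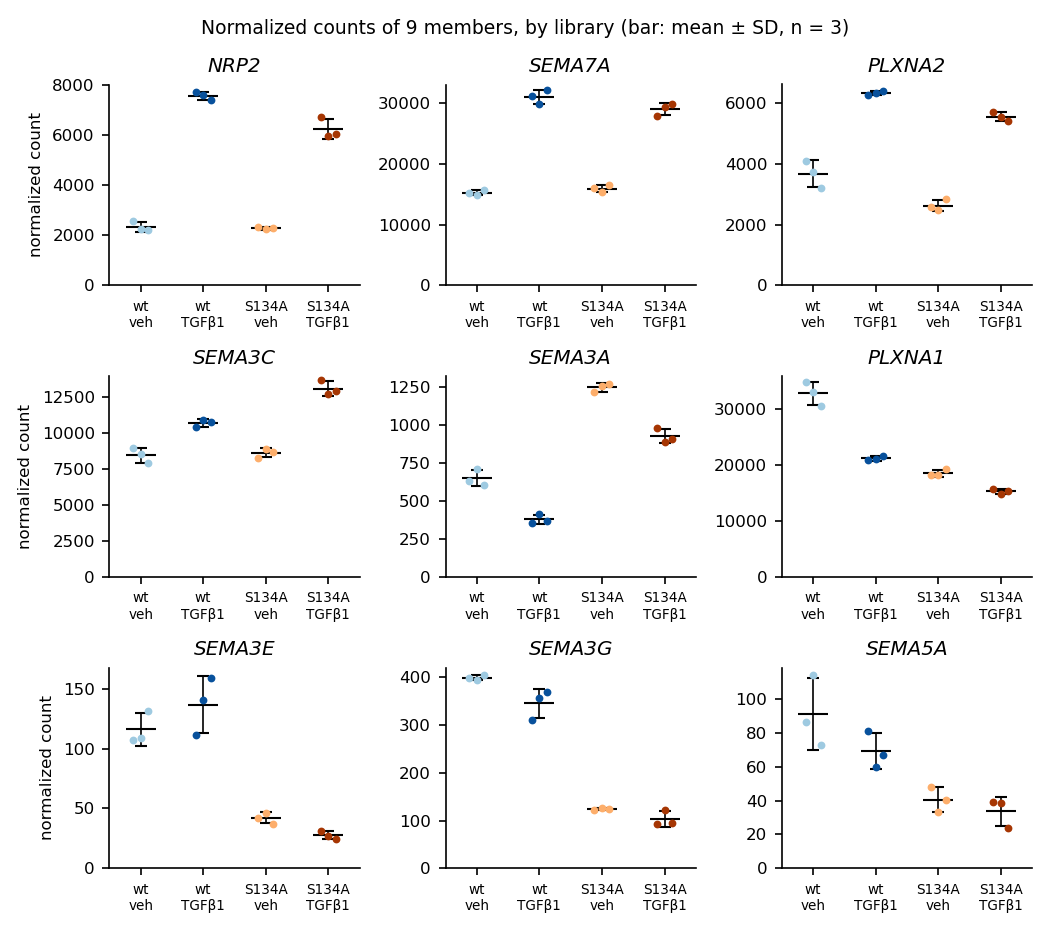
Normalized count (y axis, from 0) of 9 members in each of the 12 libraries, as points by group (x axis), with the mean ± SD of 3 libraries as bars. NRP2, SEMA7A and PLXNA2 rise with TGFβ1 in both lines, and SEMA3E, SEMA3G and SEMA5A are lower in S134A-GR than in wt-GR cells.

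Among the class 3 ligands, SEMA3C rose and SEMA3A fell in both lines. SEMA3C, a ligand of both neuropilins, had 8967, 8553 and 7928 normalized counts under vehicle and 10414, 10917 and 10814 under TGFβ1 in wt-GR cells. In S134A-GR cells it went from 8291, 8912 and 8715 to 13706, 12718 and 12937. The log2 fold change was 0.34 ± 0.0471 (limma, adjusted p = 0.000125) in wt-GR and 0.60 ± 0.0471 (limma, adjusted p = 5.46e-07) in S134A-GR cells, and under TGFβ1 the lines differed by 0.29 ± 0.0471 (limma, adjusted p = 0.000137).
SEMA3A, with the library values given above, fell by −0.78 ± 0.0786 (limma, adjusted p = 5.52e-06) in wt-GR and −0.43 ± 0.0786 (limma, adjusted p = 0.00135) in S134A-GR cells. Its vehicle and TGFβ1 libraries did not overlap in either line. SEMA3B had 3193, 3010 and 3035 normalized counts under TGFβ1 in wt-GR cells and 2644, 3512 and 3098 in S134A-GR cells. It fell in S134A-GR cells by −0.58 ± 0.0794 (limma, adjusted p = 0.000124). In wt-GR cells the value was −0.21 ± 0.0794 (limma, adjusted p = 0.0735), and it passed in DESeq2 (adjusted p = 0.0314), when only the groups compared were fitted (0.0318), and without S134A-GR TGFβ1 replicates 1 (0.0143) or 2 (0.0258), which enter through the shared estimate of the spread.
SEMA3E in S134A-GR cells was at the limit, with a log2 fold change of −0.59 ± 0.196 (limma, adjusted p = 0.0499). The call was kept in 5 of 21 alternatives. It was lost in edgeR (adjusted p = 0.0573), in DESeq2 (0.0773), with a replicate block (0.0758), with a pseudocount of 16 (0.0669), without a filter beyond 1 read (0.062), with only the groups compared (0.082), and without 10 of the 12 libraries in turn, the exceptions being wt-GR TGFβ1 replicate 1 and S134A-GR TGFβ1 replicate 1. Leaving out a library gave adjusted p up to 0.148, for S134A-GR vehicle replicate 2. SEMA3D fell in S134A-GR cells by −0.48 (limma, adjusted p = 0.0309), a call kept in 17 of 21 alternatives with adjusted p up to 0.122. SEMA3G had −0.21 (limma, adjusted p = 0.273) in wt-GR and −0.27 (limma, adjusted p = 0.159) in S134A-GR cells, the latter with an adjusted p of 0.0419 without S134A-GR TGFβ1 replicate 2. SEMA3F had −0.14 (limma, adjusted p = 0.0502) in wt-GR cells, which passed in 7 of 21 alternatives, among them DESeq2 (0.0319) and the replicate block (0.0486) but not edgeR (0.0602), and it passed nowhere in S134A-GR cells (0.05, limma, adjusted p = 0.58).

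Of genes with a mean of at least 20, 14% rose and 12.1% fell in wt-GR, and 12.7% and 10.8% in S134A-GR cells. Of the 10 membrane-anchored semaphorins, 2 rose and 4 fell in each line. Beside SEMA7A the riser was SEMA4B, by 0.27 in wt-GR and 0.19 in S134A-GR cells. The 4 that fell were SEMA4D, the ligand of PLXNB1, by −0.27 and −0.26, SEMA6A by −0.28 and −0.38, SEMA6B by −0.40 and −0.44 and SEMA6C by −0.35 and −0.43. The calls of SEMA6A and SEMA6C in wt-GR cells were kept in 16 and 19 of 21 alternatives. SEMA4F, SEMA4G and SEMA5A passed in neither line. SEMA4C had 0.14 (limma, adjusted p = 0.0569) in wt-GR cells, which passed in 5 of 21 alternatives, among them edgeR (0.0375) and DESeq2 (0.0311), and 0.09 (limma, adjusted p = 0.247) in S134A-GR cells. Of the exon bases of SEMA4G, 22.9% lie opposite MRPL43. Of the 9 plexins, 1 rose and 3 fell in each line, beside the same shares of genes. PLXNB2 had 19069, 18747 and 19246 normalized counts under TGFβ1 in wt-GR and 17781, 18370 and 19152 in S134A-GR cells, below all vehicle libraries of its line, and fell by −0.14 ± 0.033 (limma, adjusted p = 0.00839) and −0.20 ± 0.033 (limma, adjusted p = 0.000558). PLXND1, the receptor of SEMA3E, fell in S134A-GR cells by −0.12 (limma, adjusted p = 0.02, kept in 18 of 21 alternatives), and its value in wt-GR cells was −0.08 (limma, adjusted p = 0.111). PLXNB3 had −0.30 (limma, adjusted p = 0.14) and −0.40 (limma, adjusted p = 0.0516), with 3499, 5605 and 5454 normalized counts in the S134A-GR TGFβ1 libraries.

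Whether the lines responded differently to TGFβ1 was tested as a contrast of contrasts, S134A-GR minus wt-GR. PLXNA1 was the 1 member of 28 with an FDR under 0.05 in limma, beside 0.414% of all genes tested and 0.527% of those with a mean of at least 20. Its fall was smaller in S134A-GR cells, where it started from a lower level, and the difference was 0.35 ± 0.0628 (limma, adjusted p = 0.0259). It passed in 11 of 20 alternatives, among them edgeR (adjusted p = 0.00581) and DESeq2 (9.22e-05). It was lost with a replicate block (adjusted p = 0.0522) and without any 1 of wt-GR vehicle replicate 2 (0.0944), wt-GR TGFβ1 replicates 1 (0.0927), 2 (0.0757) and 3 (0.0592), S134A-GR vehicle replicates 1 (0.0936) and 2 (0.0896) and S134A-GR TGFβ1 replicates 1 (0.0606) and 3 (0.0637), where the difference stayed between 0.33 and 0.37.
At an unadjusted p under 0.05 the count was 10 of 28 members (35.7%), beside 9.3% of all genes tested and 10.3% of those with a mean of at least 20. They were NRP2 (−0.25), PLXNA1, PLXNA2 (0.29), PLXNC1 (0.40), SEMA3A (0.35), SEMA3B (−0.37), SEMA3C (0.26), SEMA3E (−0.82), SEMA3F (0.19) and SEMA7A (−0.16). Apart from PLXNA1, their adjusted p ran from 0.159 for SEMA3C to 0.392 for SEMA3F in limma. SEMA3C passed in DESeq2 (adjusted p = 0.0289) and without wt-GR vehicle replicate 3 (0.0321), and PLXNA2 without that same library (0.0372). The counts of NRP1, PLXNB2 and SEMA3G gave response differences of 0.06, −0.06 and −0.06, with standard errors of 0.0806, 0.0466 and 0.174.

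Since NRP1 and NRP2 moved in opposite directions, as did PLXNA1 and PLXNA2, their levels per kb were set in ratio within each library. Per kb, NRP1 exceeded NRP2 by 23.1, 24.7 and 22.8 times under vehicle in wt-GR cells and by 5.95, 6.10 and 6.08 times under TGFβ1. In S134A-GR cells the ratio was 30.0, 32.2 and 31.98 under vehicle and 9.98, 10.2 and 9.74 under TGFβ1. The groups did not overlap, and the order from highest to lowest was S134A-GR vehicle, wt-GR vehicle, S134A-GR TGFβ1 and wt-GR TGFβ1. The ratio of PLXNA1 to PLXNA2 per kb was 10.5, 10.9 and 11.8 under vehicle in wt-GR cells and 4.10, 4.09 and 4.17 under TGFβ1. In S134A-GR cells it was 8.65, 9.06 and 8.34 under vehicle and 3.38, 3.30 and 3.495 under TGFβ1. NRP1 and PLXNA1 remained the more abundant of each pair per kb in all 12 libraries. The ratios are descriptions of values tested above, and their size depends on the exon lengths used.

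**Figure D5:**
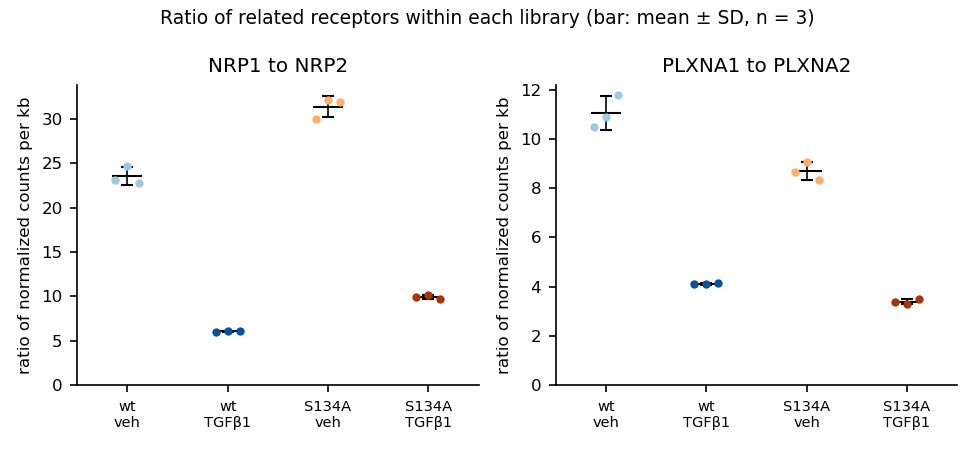
Ratio of levels per kb of exon (y axis) of NRP1 to NRP2 and of PLXNA1 to PLXNA2 in each of the 12 libraries, as points by group (x axis), with the mean ± SD of 3 libraries as bars. Both ratios are lower under TGFβ1 than under vehicle in each line.

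Genes that act with the family were counted from lists of partner receptors, cytoplasmic effectors, VEGF ligands and processing proteases, limited to a mean of at least 20. Of 34 effectors, 6 were higher and 23 lower in the S134A-GR line under vehicle, and 4 and 20 under TGFβ1, with medians of −0.25 and −0.21 on the log2 scale. For this and the next lists, the share of all genes with a mean of at least 20 was 30% higher and 31.8% lower under vehicle and 28% and 30.7% under TGFβ1. RHOD, a small GTPase that binds plexins, had 61.9, 62.4 and 79.0 normalized counts under vehicle in wt-GR cells and 0, 0 and 1.78 in S134A-GR cells. DPYSL3, of the collapsin response mediator family, had 73.3, 110 and 121 against 3.77, 6.08 and 0. CRMP1 of the same family was higher, by 0.95 ± 0.14 (limma, adjusted p = 5.58e-05) under vehicle and 1.12 ± 0.14 (limma, adjusted p = 1.28e-05) under TGFβ1. With TGFβ1, 11 effectors rose and 6 fell in wt-GR cells, and 6 rose and 3 fell in S134A-GR cells, beside 14% and 12.1% of genes in wt-GR and 12.7% and 10.8% in S134A-GR cells. MICAL2, an actin oxidizing enzyme, rose by 0.68 and 0.61. RND1, a small GTPase that opens plexins for signaling, had 103, 100 and 95.8 normalized counts under vehicle and 231, 191 and 219 under TGFβ1 in wt-GR cells, a rise of 1.09 ± 0.2 (limma, adjusted p = 0.00125). Its value in S134A-GR cells was −0.17 (limma, adjusted p = 0.645), and the difference in response was −1.26 ± 0.282 (limma, adjusted p = 0.0978).
RND3 was the 1 effector of 34 whose response difference passed, beside 0.527% of genes with a mean of at least 20. It had 3961, 4131 and 4005 normalized counts under vehicle and 3415, 3440 and 3377 under TGFβ1 in wt-GR cells, where it fell, and 2825, 2805 and 3051 against 3278, 3232 and 3396 in S134A-GR cells, where it rose. The difference was 0.43 ± 0.0592 (limma, adjusted p = 0.00717), and it passed in all 20 alternatives run for it, with adjusted p up to 0.0335.
Of the 4 VEGF ligands with a mean of at least 20, 0 were higher and 2 lower in the S134A-GR line under vehicle, and 0 and 3 under TGFβ1, beside 61.8% and 58.7% of genes called in either direction. PGF was lower by −1.25 ± 0.0445 (limma, adjusted p = 6.53e-11) and −1.40 ± 0.0445 (limma, adjusted p = 3.22e-11), and VEGFA by −0.98 ± 0.0793 (limma, adjusted p = 1.71e-07) under vehicle. TGFβ1 raised all 4 in the wt-GR line and 3 in the S134A-GR line, beside 14% and 12.7% of genes. Of the 8 proteases, which cleave semaphorins or their receptors, 1 was higher and 6 lower in the S134A-GR line under either treatment, ADAM17 by −1.05 and −0.99. FURIN, which processes class 3 semaphorins, rose with TGFβ1 by 1.18 in wt-GR and 0.92 in S134A-GR cells. Its difference in response of −0.27 ± 0.0506 (limma, adjusted p = 0.0351) was the 1 such call among the 8 proteases, beside 0.527% of genes. This call was lost with a replicate block (0.0522) and without any 1 of 10 libraries (adjusted p from 0.054 to 0.126), all but wt-GR vehicle replicate 3 and S134A-GR TGFβ1 replicate 1.
Of 8 partner receptors, 4 were higher and 3 lower in the S134A-GR line under either treatment. With TGFβ1, 2 rose and 3 fell in each line. The shares of genes were 14% and 12.1% in wt-GR and 12.7% and 10.8% in S134A-GR cells. PTPRJ fell by −0.62 and −0.52.

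In GENCODE v44 on GRCh38, 4 class 3 genes lie in a row on the minus strand of chromosome 7, SEMA3C at 80742538 to 80922359, SEMA3E at 83363238 to 83649139, SEMA3A at 83955777 to 84492724 and SEMA3D at 84995553 to 85187056. The gap between SEMA3E and SEMA3A is 306.6 kb. These neighbors went opposite ways between the lines, SEMA3E lower and SEMA3A higher in S134A-GR cells, while SEMA3D, 502.8 kb beyond SEMA3A, was higher under vehicle. SEMA3F (50155045 to 50189075) and SEMA3B (50267558 to 50277546) lie 78.5 kb apart on the plus strand of chromosome 3 and also went opposite ways under vehicle, SEMA3F lower and SEMA3B higher. Chromosome 3 held 7 of the 31 members, more than any other, among them PLXNA1 (126982693 to 127037389) and SEMA3G (52433035 to 52445103). NRP2 is at 205681990 to 205798133 on the plus strand of chromosome 2, NRP1 at 33177492 to 33336262 on the minus strand of chromosome 10, and SEMA7A at 74409289 to 74433958 on the minus strand of chromosome 15.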

How the data were processed

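RNA-seq of 12 libraries was analysed, 4 groups of 3. According to the methods and the labels, the authors used Trimmomatic for trimming, HISAT2 for alignment to hg38, featureCounts for gene counts and DESeq2 for normalization (version 1.22.2 in the submitters' processing notes, which also name FastQC 0.11.7). The deposited values are a signal, counts divided by a size factor. The annotation, the strand setting and whether a pair counted once or per read are not given in the sources used here. All values (100%, tolerance 0.01) were whole numbers of steps, 1 step per library being worth 1 read, which gave the reads. Their totals are above the average number of reads per sample in the labels, so whether a read here is a mate or a pair is not known, and the limit of 3 reads carries the same doubt.

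Log2 of the value plus 1 was fitted with limma 3.58.1 (R 4.3.3) over 18579 genes with at least 10 reads in all libraries together, with 4 group means, a variance trend and Benjamini-Hochberg adjustment. Fold changes on this scale understate the change of low genes, and an exact permutation test of 3 against 3 cannot go below 0.1. Alternatives were pseudocounts of 0.5 and 16, no filter beyond 1 read, filterByExpr, TMM scaling, edgeR 4.0.16 (quasi-likelihood) and DESeq2 1.42.0 on the reads, a replicate block, only the groups compared, a mean of at least 50, and leaving out every library once. The fits were also run on simulated counts in which a small share of genes differed, in the S134A-GR vehicle group only. The outcome is not given here. These data differ from that setting, since 51.5% of genes passed between the lines under vehicle. Chi-square per degree of freedom between replicates ran from 8.69 to 43.7, so no library was a copy of another. The highest value was that of wt-GR vehicle replicates 1 and 3, with 16.1 and 18.5 for the other pairs of that group. Replicate 1 of wt-GR vehicle was also the library with the fewest reads, 56362036. In S134A-GR cells under TGFβ1 the pairs with replicate 1 had 20.9 and 22.5, and the remaining pair had 15.4.

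Members and lists were chosen with earlier results of these data known. Library values are printed for members past the FDR that changed by 1 or more (log2) between lines, by 0.5 or more with TGFβ1, or in the difference in response, for the neuropilins, and for the plexin and semaphorin of highest level per kb. VEGFD was matched through an older symbol, and PGR and CD3E had no matching symbol in the tables used here.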

Additional observations from a re-analysis of the deposited data

Results flagged for a closer look

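The TGFβ1 response of PLXNA1 differed between the lines by 0.354 on the log2 scale, S134A-GR minus wt-GR, by a test of the difference itself (limma, adjusted p = 0.0259). In wt-GR cells the mean normalized count was 32791 under vehicle and 21184 under TGFβ1, in S134A-GR cells 18478 and 15275, and in each line all 3 TGFβ1 libraries were below all 3 vehicle libraries. Over 20 alternatives the difference ranged from 0.31 to 0.40 and the adjusted p from 9.22e-05 to 0.0944.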

How the results depend on the processing

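The numbers of members called in the comparisons of the lines and of TGFβ1 with vehicle stayed within 1.5 times of the reported counts in each of the 10 settings and on leaving out each of 12 libraries. In the difference in response, where 1 member was higher, DESeq2 called 2 members and the replicate block 0, and leaving out a library gave 0 to 3. Of 1352 alternative values of the 13 members named by rule, 1300 kept their side of the threshold with no called direction reversed, although 11 of them changed sign while passing in neither fit, 38 no longer passed, 14 newly passed and 0 reversed. These changes touched 9 of 65 named results. Over all 28 members, 65 of 140 values passed in every alternative, 54 in none and 21 in some. The cause was not tested.

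No effect shared by same-numbered libraries was seen, which does not show whether these libraries were prepared together. The 14425 genes with a mean of at least 20 were used. Their deviations from the group means correlated with a mean r of 0.0144 between same-numbered libraries (−0.0546 to 0.135 over 18 pairs), and −0.00715 between others. TMM scaling moved the median log2 fold change of all genes from 0.0117 to 0.000768 in the comparison of the lines under TGFβ1 and by less in the others. At the lowest depth, 56362036 reads, 3 reads are worth 4.89 normalized counts, which limits statements on SEMA4A, SEMA5B and SEMA6D.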
